A study of Mus musculus with 412 samples.

Results

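The levels of 10 genes for receptors of inhibitory and gut peptides and of short-chain fatty acids were followed across single colonic sensory neurons of the mouse. They are Sstr1, Sstr2 and Sstr4 (somatostatin), Galr1 and Galr2 (galanin), Npy1r and Npy2r (neuropeptide Y and peptide YY), Cckar (cholecystokinin), Glp1r (glucagon-like peptide 1) and Ffar3 (short-chain fatty acids). They were chosen by name, each has 1 row among the 45513 genes of the table, and their values across neurons played no part in the rule. Neurons of C57BL/6J mice were traced from the colon by injection of the dye Fast Blue (FB) into its wall, picked by hand from primary cultures kept apart for thoracolumbar (TL, T10 to L1) and lumbosacral (LS, L5 to S2) dorsal root ganglia (DRG), and sequenced 1 by 1. The table holds 167 TL and 158 LS neurons on 6 library plates, of which plate 1 has 5 TL neurons and no LS neuron. All neurons carry the same tracer and none was treated. The mouse and the round of culture behind each neuron are not labelled, nor is the age or sex of the mice, so TL and LS each count as a single sample, neurons do not stand in for replicate animals, and differences are given as sizes without a p-value.

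Levels are given in TPM, that is the deposited value taken off the log2 scale and rescaled to sum to 1000000 in each neuron, a scale on which genes can be compared per length of transcript. A neuron was counted as having a receptor at 10 TPM or more. At the median neuron that level equals 17.3 reads of Sstr4, the shortest of the 10 at 1424 exonic bases, and 41.2 reads of Npy2r, the longest at 3383. The neurons held 416007 to 12058968 reads on genes, the median being 2709639 for TL and 3202776 for LS neurons, and 4 neurons were so shallow that 10 TPM of Sstr4 was under 3 reads. Shares carry 95% intervals by the exact Clopper-Pearson method, which hold counting error and nothing else. No pair of neurons had identical values. Of 8 sensory neuron markers, Uchl1, Tubb3, Snap25 and Prph were each at 10 TPM or more in all 325 neurons. Calca was at that level in 315, Scn9a in 296, Scn10a in 288 and Rbfox3 in 240. RNA of satellite glia, the cells that wrap DRG neurons, was also present: the summed level of 10 glial markers ran from 7.55 to 101677 TPM in TL neurons, with a median of 2074, and from 8.78 to 60859 in LS neurons, with a median of 282. Of the 6 endothelial and 4 vascular smooth muscle markers, cells that can also carry peptide receptors, 0 and 2 reached 10 TPM in at least 5% of all neurons, and 2 of 6 macrophage markers did. Single neurons held far more. The summed endothelial markers had a median of 1.37 TPM and reached 21669 TPM in a TL neuron. Those of smooth muscle had a median of 1.86 TPM and reached 844 TPM in an LS neuron.

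As background, these receptors sit in the membrane of the cell body and nerve endings and pass a signal from a peptide or metabolite to a G protein. Somatostatin receptors, Npy1r, Npy2r and Galr1 couple to inhibitory G proteins, which lower cyclic AMP, open potassium channels and close calcium channels, whereas Galr2 and Cckar act mainly through Gq and calcium release, and Glp1r through Gs. Somatostatin, peptide YY, cholecystokinin and glucagon-like peptide 1 are released by enteroendocrine cells of the gut lining, galanin and neuropeptide Y by neurons, and Ffar3 is activated by short-chain fatty acids that gut bacteria make from fibre. Somatostatin analogues and galanin are known to damp the firing of gut afferents, while cholecystokinin excites vagal ones.

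The genes are spread over the genome, but Sstr2 (chr11:113619342-113626028, plus strand) and Galr2 (chr11:116280939-116283938, plus strand) are both on chromosome 11 (GRCm38, GENCODE M21). Npy1r (chr8:66697192-66706792, plus strand) lies beside Npy5r (chr8:66679965-66688128, minus strand), another neuropeptide Y receptor, and the genes point away from each other with 9063 bases between them. Sstr4 has a single exon at chr2:148395344-148396767 (plus), Npy2r lies at chr3:82538383-82548084 (minus), Cckar at chr5:53697776-53707705 (minus) and Sstr1 at chr12:58211772-58214444 (plus). No exon of a member overlaps an exon of another gene. Sstr2 lies within the span of Slc39a11 on the other strand, and the protocol does not keep strand, so intronic reads of Slc39a11 within Sstr2 exons would be counted for Sstr2. Sequence before the gene start is shown for Sstr2 and Galr2, because 28 of the 29 neurons with Galr2 also had Sstr2, and for Sstr4, because it was higher in LS neurons in each of 5 plates. It is from RefSeq (GRCm38.p6) on the plus strand, ends at the base before the GENCODE gene start, and has in capitals each match to TGACGTCA, the cyclic AMP response element, a palindrome that reads the same on both strands.
Sstr2, chr11:113619077-113619341: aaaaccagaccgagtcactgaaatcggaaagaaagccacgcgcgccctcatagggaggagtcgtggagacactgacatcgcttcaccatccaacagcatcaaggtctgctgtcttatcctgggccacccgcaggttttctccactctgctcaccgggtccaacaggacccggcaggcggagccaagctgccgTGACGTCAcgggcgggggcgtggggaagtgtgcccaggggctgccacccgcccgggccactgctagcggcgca
Galr2, chr11:116280689-116280938: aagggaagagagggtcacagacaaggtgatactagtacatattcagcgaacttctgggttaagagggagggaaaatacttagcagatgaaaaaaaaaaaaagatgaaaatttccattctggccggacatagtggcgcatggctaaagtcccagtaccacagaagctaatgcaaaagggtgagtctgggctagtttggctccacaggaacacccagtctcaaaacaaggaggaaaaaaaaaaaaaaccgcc
Sstr4, chr2:148395127-148395343: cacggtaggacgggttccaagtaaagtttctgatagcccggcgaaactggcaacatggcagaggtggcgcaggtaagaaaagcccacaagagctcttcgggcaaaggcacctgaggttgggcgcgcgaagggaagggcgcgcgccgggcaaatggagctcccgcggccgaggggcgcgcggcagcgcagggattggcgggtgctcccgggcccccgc
The Sstr2 stretch holds 1 match, 65 bases before the gene start, and the others hold none. Over 300-base windows, from 250 before to 50 after the start, 588 of 32851 promoters (1.79%) hold the motif. Of the members 7 have a window in that table, and Sstr2 and Ffar3 hold it. The G and C content of the printed stretches is 63.8% for Sstr2, 43.6% for Galr2 and 67.3% for Sstr4.

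The order of the receptors differed between the spinal levels. In TL neurons Galr1 had the highest mean level, 45.1 ± 63.9 TPM (SD, n = 167 neurons), followed by Npy1r at 40.8 ± 136, Sstr2 at 29.7 ± 47.5, Cckar at 25.3 ± 55.8 and Npy2r at 18.4 ± 28.7. The means of plates 2 to 6 overlapped between each of these and its neighbour, so this order is not fixed beyond the spread between plates. Below them and apart in every plate came Sstr4 at 6.61 ± 10.7, then Galr2 at 3.72 ± 7.95 and Sstr1 at 1.19 ± 2.76. In LS neurons Npy1r stood above all others at 171 ± 159 TPM (n = 158), and its 5 plate means, 124 to 208, lay above every plate mean of the next receptor. Galr1 at 19.9 ± 44.2, Sstr2 at 19.8 ± 36.4, Sstr4 at 18.2 ± 24.3, Cckar at 11.8 ± 30.6 and Npy2r at 7.38 ± 16.5 followed with overlapping plate means, and Sstr1 at 2.32 ± 5.14 and Galr2 at 1.08 ± 3.28 were the lowest of the 8 receptors found at 10 TPM. The medians show how uneven the levels were: in LS neurons the median was 124 TPM for Npy1r and 9.38 for Sstr4, but 0 for Galr1, Galr2, Npy2r and Sstr1.

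**Figure D1:**
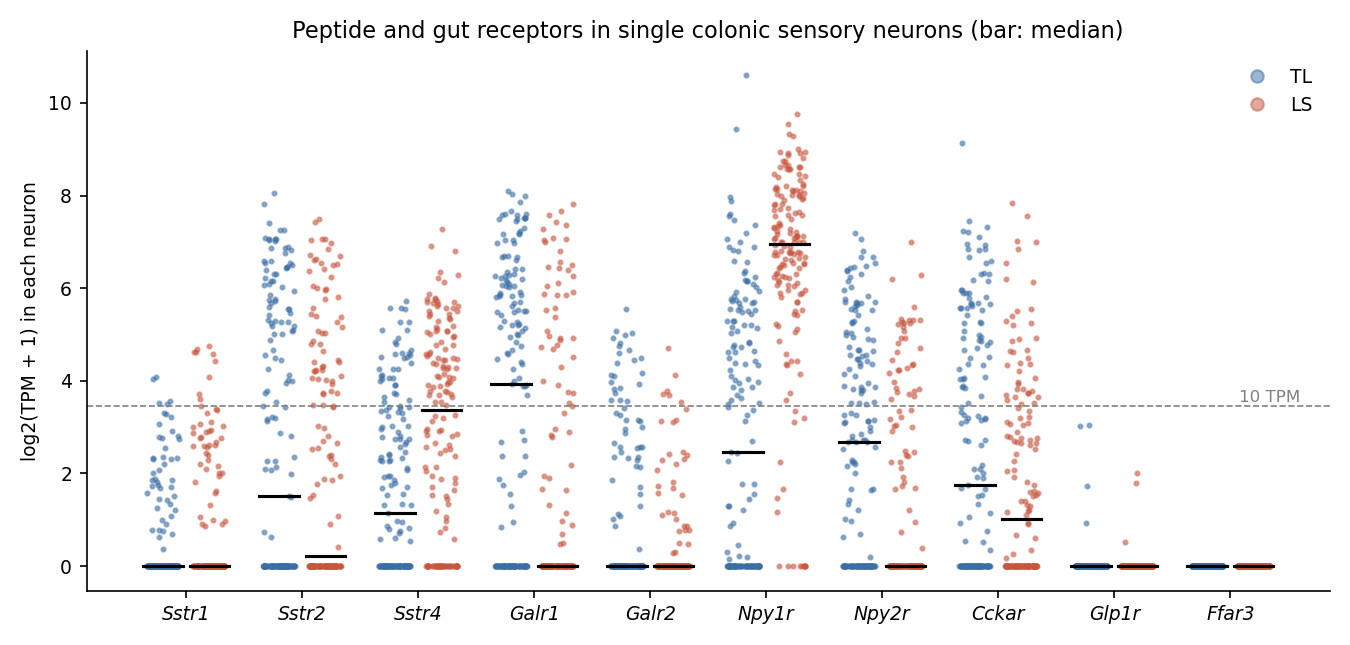
Level of each receptor in each of 167 TL (blue) and 158 LS (red) neurons on a log2(TPM + 1) axis, with the median as a bar and 10 TPM as a dashed line. Nearly every LS neuron lies above the line for Npy1r, the other receptors found have many neurons at 0 and others spread up to well above the line, and Glp1r and Ffar3 have no neuron above it.

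Glp1r and Ffar3 were not found at 10 TPM in any neuron. Glp1r had 2 to 10 reads in each of 7 neurons and none in the others, and its highest level was 7.24 TPM. Ffar3 had 0 reads in all 325 neurons. A count of 0 of 325 allows a share of up to 0.923% by a limit of 3 neurons over the number examined, and the exact interval reaches 1.13%. Both were therefore left out of all comparisons.

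The first comparison set LS against TL neurons, whose fibres reach the colon in the pelvic and the splanchnic nerves. Genes at 10 TPM in at least 5% of the neurons of 1 side were compared, and a ratio of mean TPM of 2 or more was called a difference. Npy1r and Sstr4 were called higher in LS and Galr1, Galr2, Npy2r and Cckar lower, while Sstr1 and Sstr2 stayed within 2-fold. Of all 12794 genes compared, 5.28% were called higher in LS and 5.54% lower. The share of all genes whose plate means did not overlap is not given here. Non-overlap of plate means is therefore a description of a gene, here and below, with no background beside it. The median log2 ratio was -0.84 over the 8 receptors compared and 0.05 over all genes. The glial markers were lower in LS neurons at the median, as given above. Without the 25% of neurons with the highest glial score the same 2 receptors were called higher and the same 4 lower.

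Npy1r, the main inhibitory receptor for neuropeptide Y on sensory neurons, was at 10 TPM or more in 142 of 158 LS neurons (89.9%, interval 84.1 to 94.1%) and in 78 of 167 TL neurons (46.7%, 39.0 to 54.6%). Its level ran from 0 through a median of 4.54 to 1546 TPM in TL and from 0 through 124 to 866 TPM in LS. The mean was 4.20-fold higher in LS, on the log2 scale 2.07, and the 5 LS plate means (124 to 208 TPM) did not overlap the 5 TL ones (19.6 to 70.8). A single TL neuron had the 1546 TPM. Without it the TL mean was 31.7 TPM and the log2 ratio 2.43. By the ratio of shares Npy1r was not called.

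Sstr4, a somatostatin receptor studied as a target for pain relief, was at 10 TPM in 79 LS neurons (50.0%, 42.0 to 58.0%) and 36 TL neurons (21.6%, 15.6 to 28.6%). Its level ran from 0 through a median of 9.38 to 154 TPM in LS and from 0 through 1.20 to 51.8 TPM in TL, and the mean was 2.75-fold higher in LS. The LS plate means (12.3 to 34.0 TPM) lay above the TL ones (3.34 to 9.996) in all 5 plates with no overlap. Sstr4 was the member with the fewest reads behind 10 TPM, and its level went up with depth within both segments (Spearman rho with reads 0.19 in TL and 0.26 in LS, across neurons). With neurons thinned to 500000 reads and 5 reads as the limit, 36.8% of LS and 15.1% of TL neurons had Sstr4. The 4 neurons with fewer reads were left out. Unlike TPM, this limit takes no account of gene length. In CPM, that is reads scaled to 1000000 per neuron without regard to gene length, the shares without thinning were 35.4% and 13.2%. The shares were thus below those in TPM without any thinning, and the part of depth in them was not tested.

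The other calls were lower in LS. Galr1, the inhibitory galanin receptor, was at 10 TPM in 88 TL neurons (52.7%, 44.8 to 60.5%) and 41 LS neurons (25.9%, 19.3 to 33.5%), with medians of 14.3 and 0 and highest levels of 273 and 225 TPM. Its mean was 2.26-fold lower in LS. The groups overlapped over plates: in plate 3 the LS mean was 59.6 TPM, against 55.2 in TL, and in the other 4 plates LS was lower. Galr2 was at 10 TPM in 23 TL neurons (13.8%, 8.94 to 19.9%) and 6 LS neurons (3.80%, 1.41 to 8.08%), with a mean 3.45-fold lower in LS, lower in 4 of 5 plates. It was uneven among TL plates, at 0% of neurons in plate 3 and 26.3% in plate 6.

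Npy2r, the receptor preferred by the truncated form of peptide YY that circulates after meals, was at 10 TPM in 67 TL neurons (40.1%, 32.6 to 48.0%) and 34 LS neurons (21.5%, 15.4 to 28.8%). Its median was 5.38 TPM in TL and 0 in LS, and its level reached 145 and 126 TPM. The mean was 2.50-fold lower in LS, and the LS plate means (3.05 to 12.6 TPM) lay below the TL ones (15.3 to 24.9) without overlap. Cckar, the receptor by which cholecystokinin acts on vagal afferents, was at 10 TPM in 63 TL neurons (37.7%, 30.4 to 45.5%) and 39 LS neurons (24.7%, 18.2 to 32.2%), with medians of 2.36 and 1.03 TPM. Its mean was 2.14-fold lower in LS, with overlapping plate means (2.77 to 24.3 against 12.5 to 42.5 TPM). One TL neuron held 563 TPM of Cckar, and the next highest 174. Without that neuron the log2 ratio was -0.90, under 2-fold. Leaving out plate 2 or plate 6 also ended the call of Cckar, and leaving out plate 4 that of Galr1. By the ratio of shares Npy2r and Cckar were not called.

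Sstr2, the receptor that most clinical somatostatin analogues target, was at 10 TPM in 69 TL neurons (41.3%, 33.8 to 49.2%) and 57 LS neurons (36.1%, 28.6 to 44.1%), with means of 29.7 and 19.8 TPM, and the plate means overlapped. Sstr1 was at 10 TPM in 5 TL (2.99%, 0.979 to 6.85%) and 9 LS neurons (5.70%, 2.64 to 10.5%). Its ratio of 1.95 lay just under 2-fold, and Sstr1 passed 2-fold without plate 2 or without plate 3, with the reads thinned, with values not rescaled and without its highest TL neuron (2.11-fold). Without its highest LS neuron the log2 ratio went from 0.96 to 0.87.

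**Figure D2:**
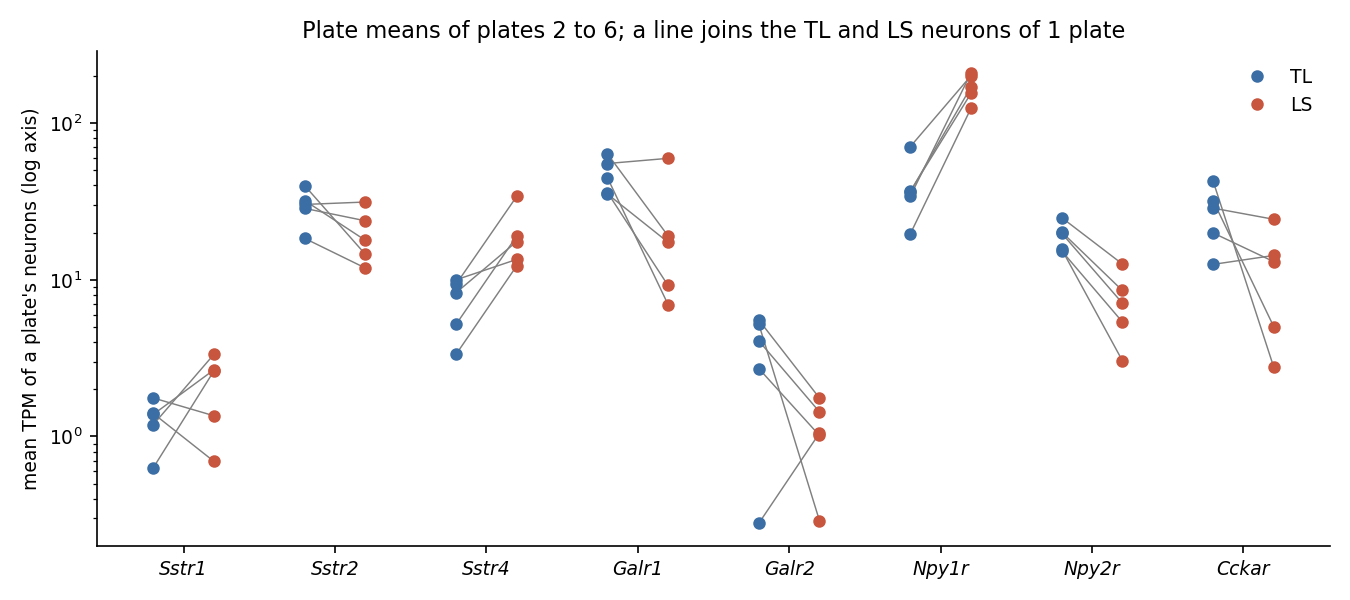
Mean level of 8 receptors over the TL (blue) and LS (red) neurons of each of plates 2 to 6, in TPM on a log axis, with a line joining the 2 means of a plate. Every line goes up for Npy1r and Sstr4 and down for Npy2r, while the lines of the other receptors go both ways.

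The next comparison asked which kind of neuron has each receptor. Gfra3, the receptor for artemin, marks peptidergic nociceptors, and Piezo2 is the ion channel by which many DRG neurons sense touch and stretch. Of the TL neurons 82 had only Gfra3 at 10 TPM or more, 55 only Piezo2, 18 both and 12 neither. The LS numbers were 76, 65, 7 and 10. Gfra3 was rarely near the limit, with 3 neurons from 5 to under 10 TPM and 3 from 10 to under 20, and the nearest values were 9.627 and 10.98 TPM. Piezo2 had 17 neurons just below and 10 just above in these ranges, the nearest at 9.99 and 10.9 TPM. Median reads were similar in Gfra3 only (2555740 in TL, 3091710 in LS) and Piezo2 only neurons (2831677 and 3244816).

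In TL neurons Sstr1, Sstr2, Sstr4, Galr2, Npy1r and Cckar were called higher in Gfra3 only than in Piezo2 only neurons, and no member was called lower. Of 12763 genes compared 9.55% were called higher and 10% lower. In LS neurons 6 members were again called higher, with Npy2r in place of Npy1r, and none lower, beside 7.76% higher and 8.26% lower among 12854 genes. Glial markers summed to a median of 2364 TPM in TL Gfra3 only and 1335 in TL Piezo2 only neurons, and to 250.3 and 449.5 TPM in LS. Without the 25% of neurons with the highest glial score Sstr4 lost its call in TL and all 6 calls were kept in LS.

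Sstr2 had the widest gap of the 8 in TL neurons by the ratio of means. It was at 10 TPM in 60 of 82 TL Gfra3 only neurons (73.2%, 62.2 to 82.4%), with a median of 40.4 and a highest level of 265 TPM, and in 2 of 55 Piezo2 only neurons (3.64%, 0.443 to 12.5%), with a median of 0 and a highest level of 31.3 TPM. The mean was 39.4-fold higher, 55.5 against 1.41 TPM, and 65.0-fold higher without the Piezo2 only neuron at 31.3 TPM. In LS the shares were 51 of 76 (67.1%, 55.4 to 77.5%) and 4 of 65 (6.15%, 1.70 to 15.0%), and the mean was 21.5-fold higher. Sstr2 was thus split alike at both spinal levels, and plate means of the classes did not overlap in either. Sstr1 and Galr2 were rarer and found at 10 TPM in Gfra3 only neurons alone: Sstr1 in 5 TL and 9 LS neurons, and Galr2 in 23 TL and 6 LS neurons. Of 55 TL and 65 LS Piezo2 only neurons 0 had either at 10 TPM, which allows shares of up to 5.45% and 4.62% by the limit of 3 neurons and 6.49% and 5.52% by the exact interval. Below 10 TPM, Galr2 had reads in 6 TL and 16 LS Piezo2 only neurons, and Sstr1 in 6 and 3. The TL call of Sstr1 rested on few neurons: it was lost in CPM, with thinned reads, with values not rescaled, at 20 TPM, by the ratio of shares, by log2 differences and without its highest neuron. The LS call of Galr2 was lost with values not rescaled, at 20 TPM, by the ratio of shares and by log2 differences. Without the highest Piezo2 only neuron the ratio of Sstr1 went from 6.18 to 11.7-fold in TL and from 20.5 to 57.0-fold in LS, and that of Galr2 in TL from 29.2 to 45.0-fold.

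Npy1r was called higher in Gfra3 only neurons in TL, and stayed within 2-fold between the classes in LS. In TL 60 of 82 Gfra3 only neurons had it (73.2%) with a mean of 67.0 TPM, and 4 of 55 Piezo2 only neurons (7.27%, 2.02 to 17.6%) with a mean of 5.49 TPM. The TL ratio was 12.2-fold (log2 3.61), and 19.1-fold without the highest Piezo2 only neuron. Without the highest Gfra3 only neuron the mean of that class was 48.7 TPM and the log2 ratio 3.15. In LS 75 of 76 Gfra3 only neurons (98.7%, 92.9 to 100.0%) and 56 of 65 Piezo2 only neurons (86.2%, 75.3 to 93.5%) had it, at means of 212 and 136 TPM. Npy2r was called in LS and not in TL. In TL its log2 ratio was 0.03, and ran from -0.30 to 1.18 over recomputed ratios of means. Npy2r passed 2-fold in TL in 1 of these. It had similar shares in TL Piezo2 only (23 of 55, 41.8%, 28.7 to 55.9%) and in TL Gfra3 only neurons (32 of 82, 39.0%, 28.4 to 50.4%), with overlapping intervals, but in LS it was at 10 TPM in 26 of 76 Gfra3 only (34.2%, 23.7 to 46.0%) and 5 of 65 Piezo2 only neurons (7.69%, 2.54 to 17.0%).

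Cckar was at 10 TPM in 47 TL Gfra3 only (57.3%, 45.9 to 68.2%) and 11 TL Piezo2 only neurons (20.0%, 10.4 to 33.0%), and in 31 LS Gfra3 only (40.8%, 29.6 to 52.7%) and 6 LS Piezo2 only neurons (9.23%, 3.46 to 19.0%). The TL neuron with 563 TPM was a Piezo2 only neuron, and without it the mean of that class was 7.32 rather than 17.4 TPM and the log2 ratio 2.32 rather than 1.07. The TL call of Cckar was lost with plate 3, 5 or 6 left out and with plates given equal weight. Sstr4 was at 10 TPM in 21 TL Gfra3 only (25.6%, 16.6 to 36.4%) and 6 TL Piezo2 only neurons (10.9%, 4.11 to 22.2%), and in 52 (68.4%, 56.7 to 78.6%) and 19 (29.2%, 18.6 to 41.8%) in LS. Its TL ratio of 2.21 was near 2-fold, and the call was also lost in CPM, with thinned reads, at 20 TPM and without plate 5. Galr1 was not called at either level. It was at 10 TPM in 45 of 82 TL Gfra3 only (54.9%, 43.5 to 65.9%) and 25 of 55 TL Piezo2 only neurons (45.5%, 32.0 to 59.4%), yet where present it was high in the latter. The median of the neurons at 10 TPM or more was 130 TPM in Piezo2 only and 50.9 TPM in Gfra3 only neurons. The upper quartile over all neurons of the class was 125 TPM against 55.7 TPM.

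**Figure D3:**
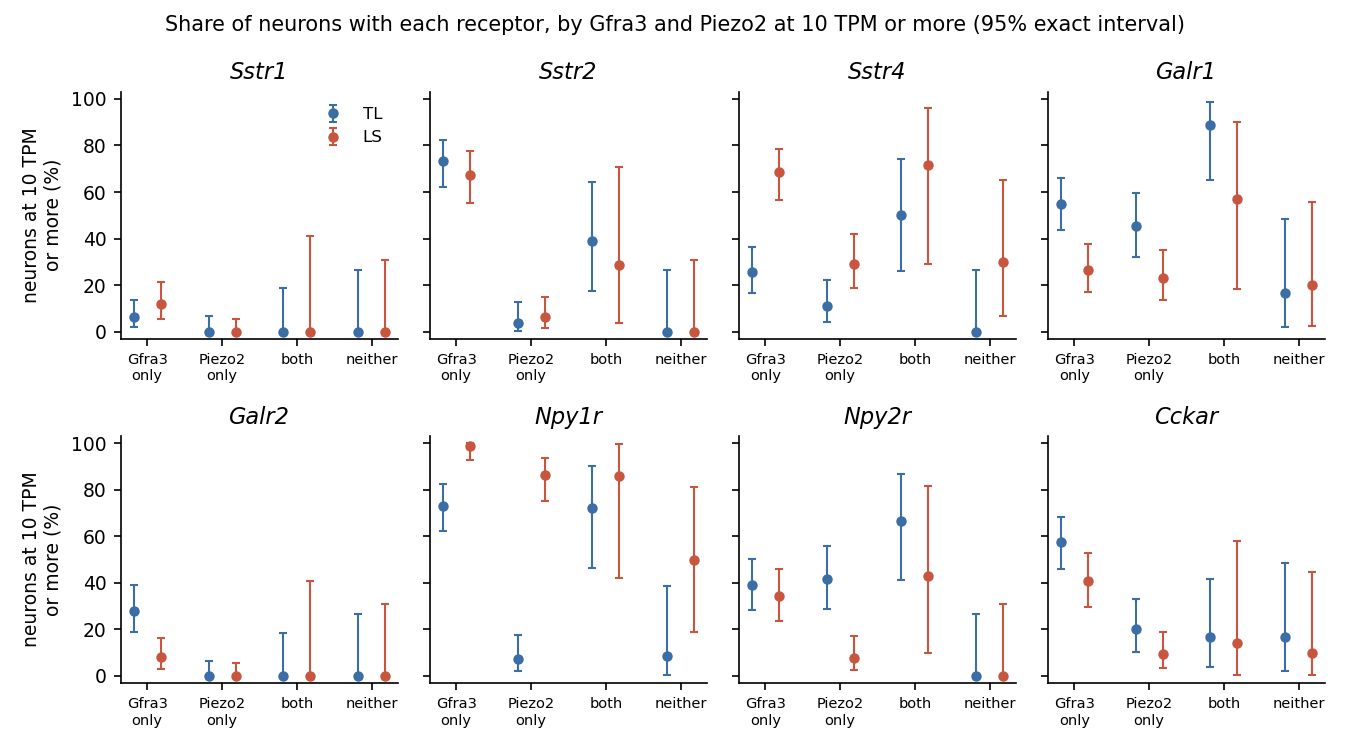
Percent of neurons with each of 8 receptors at 10 TPM or more in Gfra3 only, Piezo2 only, double positive (both) and double negative (neither) neurons of TL (blue) and LS (red) ganglia, with exact 95% intervals. Sstr2 is split by class at both levels, Npy1r far more in TL than in LS, and Npy2r falls away in LS Piezo2 only neurons, 7.69% against 41.8% in TL.

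LS and TL neurons were then compared within each class, a step added after these shares had been seen. A class does not hold the same kinds of neuron in both segments. Of the study's subtype markers, Hpse was at 10 TPM in 42 of 65 LS and 0 of 55 TL Piezo2 only neurons, and Fam19a1 in 4 and 27. Ntm was in 38 of 76 LS and 0 of 82 TL Gfra3 only neurons. The part of this mix in the differences was not tested. Among Gfra3 only neurons Npy1r (3.17-fold), Sstr4 (3.09-fold) and Sstr1 (2.21-fold) were called higher in LS and Galr2 lower (3.92-fold), beside 6.37% of 12753 genes higher and 5.71% lower. The call of Sstr1 was lost with plates given equal weight, by the ratio of shares, by log2 differences, without plate 4, without plate 5 and without the 25% of neurons with the most glial RNA, and that of Npy1r with values not rescaled (log2 ratio 0.75) and by the ratio of shares. The plate means of Npy1r, 172 to 283 TPM in LS and 36.2 to 119 in TL, and of Sstr4, 17.8 to 44.8 and 3.99 to 15.7, did not overlap. Among Piezo2 only neurons Npy1r was 24.9-fold higher in LS, with plate means of 87.3 to 201 TPM against 0 to 10.2, and 39.0-fold higher without the highest TL neuron. Sstr4 was 2.33-fold higher, a call lost with thinned reads, with values not rescaled, at 20 TPM, by log2 differences and without the 25% of neurons with the highest glial score. Npy2r was 6.58-fold lower, with plate means of 0.257 to 6.15 TPM against 8.25 to 22.4, Galr1 2.90-fold lower and Cckar 6.94-fold lower. Sstr1 and Galr2 were too rare in this class to be compared, and the background was 8.37% of 12613 genes higher and 7.98% lower. On the log2 scale the Cckar value was -2.79, and -1.54 without its highest neuron. The difference of Npy1r between the segments on the log2 scale was 4.64 in Piezo2 only and 1.66 in Gfra3 only neurons, and that of Npy2r -2.72 and -0.62. Between Gfra3 only neurons of the segments Galr1 differed by 1.90-fold and Cckar by 1.74-fold, under 2-fold, and Galr1 by 2.18-fold without its highest LS neuron. Sstr2 in Piezo2 only neurons passed 2-fold (2.13, higher in LS) without the TL neuron at 31.3 TPM.

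The 25 neurons with both Gfra3 and Piezo2 were few, and their intervals are wide. Of the 18 in TL, 16 had Galr1 (88.9%, 65.3 to 98.6%), 13 Npy1r (72.2%), 12 Npy2r (66.7%, 41.0 to 86.7%), 9 Sstr4 (50.0%) and 7 Sstr2 (38.9%), and 0 had Galr2. Each of the 25 had at least 1 of the 10 receptors. Among the 22 neurons with neither gene 10 had none of the receptors, and they had fewer genes detected (median 9199 in TL and 9569 in LS) than the other classes (13639 to 13699 in TL and 13641 to 14383 in LS). Median glial levels were also higher there, at 3633 TPM in TL and 985 in LS. The part of these values in the low receptor counts was not tested.

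A neuron had 2.57 ± 1.66 of the 10 receptors (SD, n = 325), and at most 7. TL and LS neurons had the same mean, 2.57 and 2.58, but 27 of 167 TL neurons (16.2%, 10.9 to 22.6%) and 5 of 158 LS neurons (3.16%, 1.04 to 7.23%) had none. Gfra3 only neurons had 3.57 ± 1.67 in TL and 3.55 ± 1.29 in LS, and Piezo2 only neurons 1.29 ± 1.10 and 1.62 ± 0.91. At least 4 receptors were found together in 53.7% of TL and 52.6% of LS Gfra3 only neurons, and in 3.64% and 4.62% of Piezo2 only neurons.

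Some pairs shared neurons within a class. Of the 29 neurons with Galr2, 28 also had Sstr2 (96.6% of Galr2 and 22.2% of Sstr2 neurons). All 29 were Gfra3 only neurons, so the class sets much of this overlap: within TL Gfra3 only neurons 22 of 23 with Galr2 had Sstr2 (95.7%), and 38 of 59 without Galr2 (64.4%). The Spearman correlation of the 2 genes across neurons was 0.59 in TL (n = 167) and 0.16 in LS (n = 158). Npy2r and Galr1, both coupled to inhibitory G proteins, also met often. Of 101 neurons with Npy2r 73 had Galr1 (72.3% of Npy2r and 56.6% of Galr1 neurons), with correlations of 0.57 in TL and 0.42 in LS. In TL Piezo2 only neurons 19 of 23 with Npy2r had Galr1 (82.6%), against 6 of 32 without (18.8%), and in LS Gfra3 only neurons 12 of 26 (46.2%) against 8 of 50 (16.0%). Cckar and Galr1 seldom met in Piezo2 only neurons: 2 of 11 with Cckar in TL had Galr1 against 23 of 44 without it, and 0 of 6 against 15 of 59 in LS. Npy1r was found with Sstr2 and Sstr4. In TL 59 of 69 neurons with Sstr2 had Npy1r (85.5%), beside 46.7% of all TL neurons, with a correlation of 0.65. In LS all 57 neurons with Sstr2 and 77 of 79 with Sstr4 had it, beside 89.9% of all LS neurons, and the correlation of Sstr4 with Npy1r was 0.62. Most TL neurons with Sstr2, 60 of 69, were Gfra3 only neurons, and 73.2% of that class had Npy1r. In Gfra3 only and in LS Piezo2 only neurons Npy1r was about as common with Sstr4 as without it. The shares were 76.2% and 72.1% in TL Gfra3 only, 100.0% and 95.8% in LS Gfra3 only, and 89.5% and 84.8% in LS Piezo2 only. Among TL Piezo2 only neurons 1 of 6 with Sstr4 had Npy1r, and 3 of 49 without. Sstr2 and Npy1r were not counted together within a class.

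**Figure D4:**
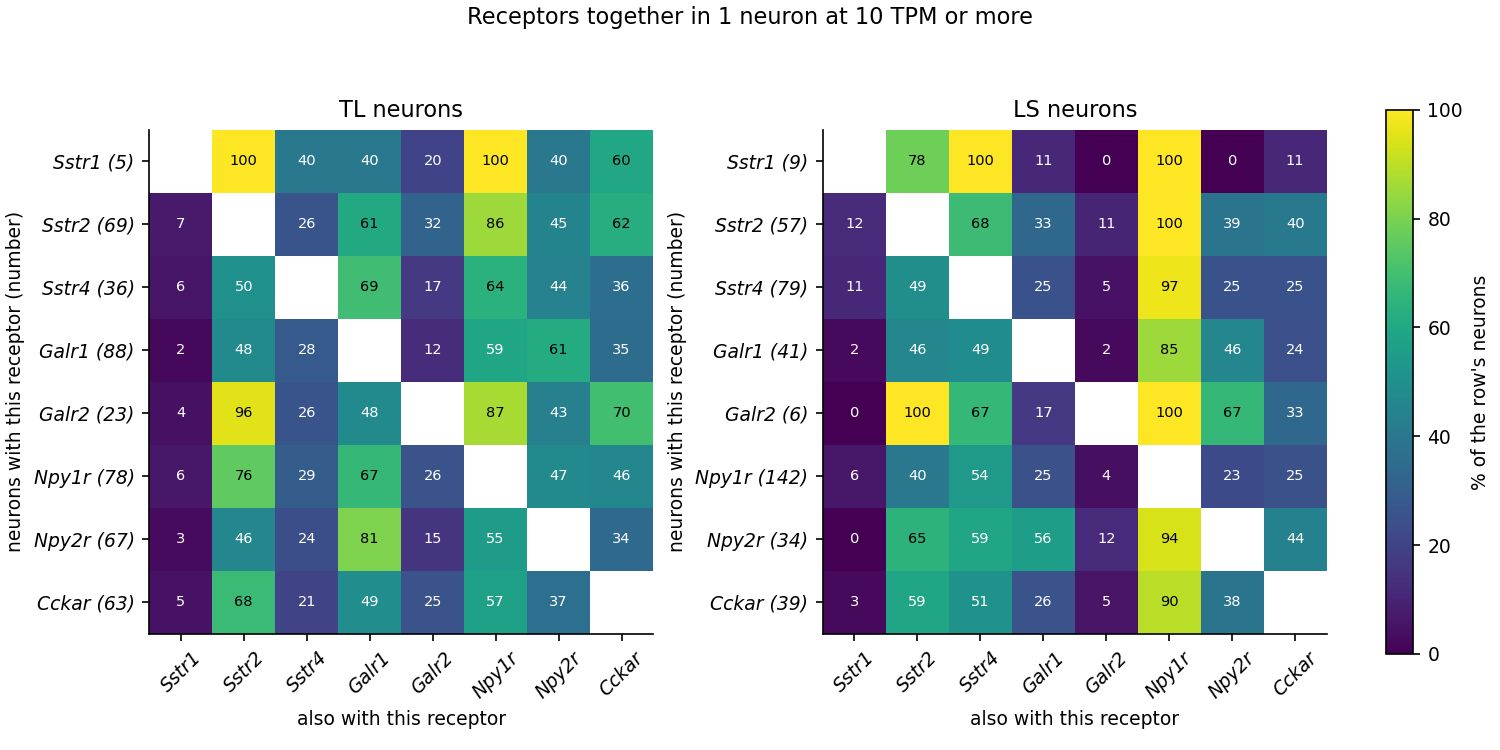
Percent of the neurons with the row's receptor (number in brackets) that also have the column's receptor at 10 TPM or more, in TL (left) and LS (right) neurons. The Npy1r column is the brightest of the LS panel, and Galr2 neurons nearly all have Sstr2 at both levels, 22 of 23 in TL and 6 of 6 in LS.

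Npy5r was at 10 TPM in 29 LS neurons (18.4%) and 5 TL neurons (2.99%), at means of 4.52 and 0.838 TPM. All 34 also had Npy1r (100.0% of Npy5r and 15.5% of Npy1r neurons), and of the 105 neurons without Npy1r at 10 TPM 0 had any Npy5r. Like Npy1r, Npy5r was higher in LS neurons, 5.39-fold in all neurons, 2.99-fold in Gfra3 only and 25.5-fold in Piezo2 only neurons (46.1-fold without the highest TL neuron), and in each case without overlap of plate means. Npy5r reached 27.7% of LS Piezo2 only neurons and 0 of 55 in TL. Its mean in these TL neurons was 0.239 TPM, with 3 of the 55 above 0, so the fold in this class rests on few neurons.

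**Figure D5:**
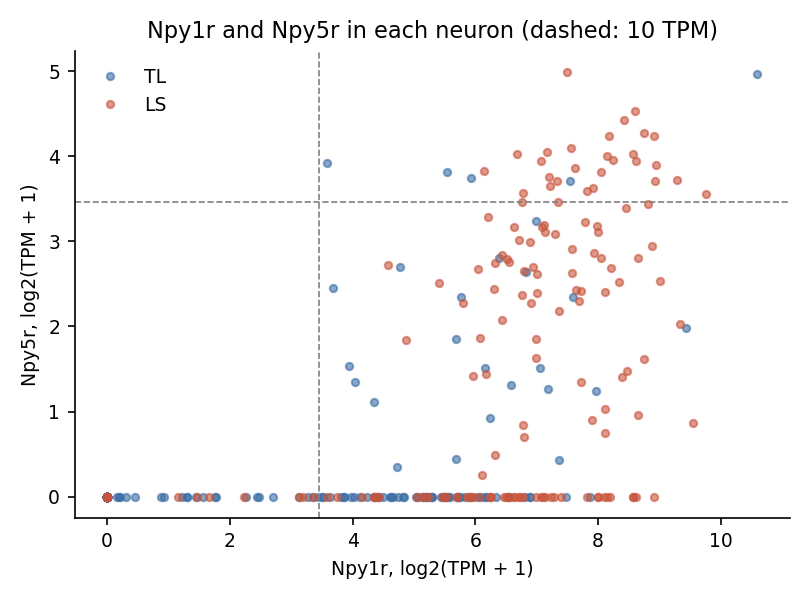
Npy5r against Npy1r in each TL (blue) and LS (red) neuron, both as log2(TPM + 1), with 10 TPM as dashed lines. All 34 neurons above the Npy5r line lie to the right of the Npy1r line, and 29 of them are LS neurons.

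The peptides that act on these receptors were seldom at 10 TPM in the neurons, apart from galanin. Gal was at 10 TPM in 123 TL (73.7%) and 140 LS neurons (88.6%), at means of 2991 and 2972 TPM, and 8.76-fold (TL) and 13.8-fold (LS) higher in Gfra3 only than in Piezo2 only neurons. A single TL Piezo2 only neuron had 22925 TPM of Gal, and without it the TL ratio was 27.9-fold, above the LS one. Of the neurons with Galr1 89.1% also had Gal, beside 75.5% of those without Galr1, and 43.7% of those with Gal had Galr1. In TL the shares with Gal were 88.6% with Galr1 and 57.0% without. In LS they were nearly alike, 90.2% and 88.0%. All 29 neurons with Galr2, which were Gfra3 only neurons, had Gal. In the TL ones its mean was 6250 ± 2514 TPM (SD, n = 23), and 4899 ± 4513 in the 59 TL Gfra3 only neurons without Galr2, a gap smaller than the spread between neurons. In LS the means were 5600 ± 2806 (n = 6) and 5610 ± 3877 TPM (n = 70). Sst was found at 10 TPM in 5 TL neurons and in no LS neuron (0 of 158, which allows up to 1.90% by the limit of 3 neurons and 2.31% by the exact interval), Npy in 2 TL neurons and Cck in 11 neurons, of which 3 had Cckar. Pyy, Ppy and Gcg reached 10 TPM in 0 neurons. Calca, which encodes the peptide CGRP, was at 10 TPM in every neuron with Sstr2, Sstr4, Galr1 or Npy1r, beside 315 of all 325.

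Of 19 related receptors in the table, which include the other somatostatin, neuropeptide Y, cholecystokinin, glucagon family and fatty acid receptors, 2 could be compared between the segments, Npy5r and Ntsr2, a neurotensin receptor (21.0% of TL and 17.7% of LS neurons). Npy5r was called higher. Sstr3, Sstr5, Npy6r, Glp2r, Gipr, Gcgr, Sctr, Ffar1, Ffar2, Ffar4, Vipr1 and Vipr2 reached 10 TPM in no neuron. Galr3 was not analysed here. Of 15 peptide genes 6 were compared, and Vip was called higher in LS (at 10 TPM in 11 LS and 0 TL neurons) and Nts lower (0 LS and 9 TL neurons). The background was 5.28% of all genes higher and 5.54% lower. Of 26 genes for G proteins, channels and enzymes that act below such receptors 20 were compared between the segments, 0 were called higher and 1 lower (Grk3, 2.20-fold), a share near that of all genes. The inhibitory subunits Gnai1, Gnai2, Gnai3, Gnao1 and Gnaz were each at 10 TPM in 89.2 to 100.0% of TL and 96.8 to 100.0% of LS neurons. Among the subunits of potassium channels that inhibitory G proteins open, Kcnj3 was at 10 TPM in 16.2% of TL and 6.33% of LS neurons, and Kcnj5, Kcnj6 and Kcnj9 in at most 3.80% of either.

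The 7 genes that the study used to mark its neuron subtypes were set beside the receptors. These markers were chosen on these neurons, 55 neurons had 2 of them at 10 TPM, 1 had 3 and 22 had none, so the shares are descriptions. The name in brackets is the subtype that a gene was picked to mark, and the neurons with the gene were not assigned to it. Npy1r was at 10 TPM in 43 of 44 neurons with Hpse (pNF) and 47 of 48 with Ntm (pPEP), markers found in LS neurons alone. It was in 3 of 34 TL and 2 of 6 LS neurons with Fam19a1 (mNFb). Sstr4 was in 43 of 48 Ntm neurons (89.6%) and 9 of 44 Hpse neurons (20.5%), and 8 of the 9 LS neurons with Sstr1 had Ntm. Galr1 and Npy2r were each in 24 of 34 TL Fam19a1 neurons and in 1 and 5 of 48 Ntm neurons. Of the 6 LS Fam19a1 neurons 5 had Galr1 and 0 had Npy2r. Cckar was in 12 of 17 Cbln2 neurons (70.6%, mNFa), which had Galr1, Galr2, Sstr1 and Sstr2 in 0, and in 0 of 24 Smr2 neurons (mPEPa). Trpa1 was at 10 TPM in 170 neurons, far more widely than the other markers, of which 79 in TL and 54 in LS were Gfra3 only, 20 and 3 Piezo2 only, and 11 and 3 both. They held 29 of 29 neurons with Galr2, and 63.5% had Sstr2. The 17 Mrgprd neurons (mNP) had few of these receptors, with Cckar in 4 and Galr1, Npy1r, Npy2r and Sstr2 in 2 each.

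Among 11885 genes at 10 TPM in at least 5% of neurons, those most like each receptor were sought by Spearman correlation over 325 neurons. These neurons share libraries, depth and segment, so the values are descriptions. Gfra3 (0.73) and Casr, the calcium-sensing receptor (0.70), were among the genes most like Sstr2, and Gfra3 was first within TL (0.78) and within LS (0.69). Among those most like Galr1 were Prokr2 (0.66) and Adamtsl2 (0.64), and among those most like Npy2r were Ephx1 (0.59) and Gpr149 (0.58). Npy1r was most like Ass1 (0.74), Gm5424 (0.74) and Adcyap1 (0.74), which encodes the peptide PACAP, and within TL Adcyap1 was first (0.83). Gm5424 is a near-identical copy of Ass1, so counts may be split between them and both values are uncertain. Cckar was most like Parm1 (0.63), Hs3st2 (0.58) and Hmgb3 (0.57), Sstr4 like Snap47 (0.65), Tmem130 (0.59) and Scg2 (0.59), and Galr2 like Npffr2 (0.53), Oprl1 (0.49) and Slc7a14 (0.49). For Galr2 the order did not carry over: the correlation with Npffr2 was 0.68 in TL and 0.24 in LS.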

How the data were processed

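Single FB-labelled neurons were sequenced by Smart-seq2, which keeps no strand. The authors aligned reads to GRCm38.p3 and counted them per gene. The submitters' processing notes name bcl2fastq 2.15.0.4, STAR 2.4.1 and featureCounts 1.4.4. The deposited table holds, per gene and neuron, log2(x + 1) values with x scaled for gene length and depth. Neurons carrying satellite glia had not yet been removed. Another 74 neurons and 13 bath controls of the labels were not analysed here.

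Each value was taken as x = 2 to the power of the deposited log2 value, minus 1, and rescaled to 1000000 per neuron (TPM). Reads were recovered from x with gene lengths: 65.0% of values above 0 came out whole with GENCODE M21 lengths (tolerance 1e-06), and other genes took a length found from the values. Reads served for depth, CPM and thinning only. A gene was compared if at 10 TPM in 5% of the neurons of either group, and called at a 2-fold ratio of means. Plates 2 to 6 were strata. All 10 members are named, other genes come from lists of related receptors, ligands, signalling genes and markers, and the 3 genes of highest Spearman correlation per member, some of which are not reported here. The members and lists were chosen with earlier results of these data known. Scripts ran in Python 3.11.15 with numpy 2.4.6, pandas 2.3.3 and scipy 1.17.1 and were tested on simulated data.

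Alternatives changed the unit, scaling, fold, threshold, filters, depth or plates. The comparisons within a class and those without the highest neuron were added after the values had been seen.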

Additional observations from a re-analysis of the deposited data

Results flagged for a closer look

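The share of neurons at 10 TPM or more was set against that of the other plates for 8 receptors in TL and LS neurons, 16 groups of 5 plates in all, where chance marks about 1 in 20. In LS neurons of plate 2 Sstr2 was in 23.8% of neurons, below the 36.8 to 40.0% of the other 4 plates, and the gap to the nearest was 0.805 of the whole range. In LS neurons of plate 3 Npy2r was in 40.0%, above the 14.3 to 21.6% of the other plates, with a gap of 0.715 of the range, just past the limit of 0.710. Plate 3 also had the highest LS share of Galr1, 44.0%. The part of the plate in these values was not tested.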

How the results depend on the processing

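Plates 2 to 6 hold both segments, and with the plates given equal weight the same 2 receptors were called higher and the same 4 lower in LS, while Cckar lost its call in TL neurons by class and Sstr1 its call between Gfra3 only neurons. No test with plate as a block was made, since each segment is a single sample. Of 190 recomputed counts of called receptors 172 stayed within 1.5 times the reported count and 18 did not, and no log2 ratio of a called receptor changed sign. Between LS and TL neurons, a limit of 3-fold left 1 higher (Npy1r, of 2) and 1 lower (Galr2, of 4), and the difference of mean log2 values 2 lower. The ratio of shares left 1 higher (Sstr4) and 2 lower (Galr1 and Galr2), so Npy1r, Npy2r and Cckar lost their calls. Among Gfra3 only neurons the count lower in LS (1) was 4 with values not rescaled, 2 by the ratio of shares and 3 by log2 differences, and the count higher (3) was 1 by the ratio of shares. Among Piezo2 only neurons the count higher in LS (2) was 1 with values not rescaled, at 3-fold, by log2 differences, at 20 TPM, without the 25% of neurons with the highest glial score and with 500000 reads per neuron. Without a filter on low values 1 receptor, Glp1r, was lower in TL Gfra3 only neurons, where it was not compared otherwise. With 1 plate left out at a time, the count lower in LS Gfra3 only neurons ran from 1 to 3: it was 3 without plate 3 (Galr1, Galr2 and Cckar) and 2 without plate 4 (Galr2 and Cckar). The cause was not tested. At the median neuron 10 TPM is 17.3 reads of Sstr4, the fewest of the 10, and 24.9 of Sstr1 and 29.9 of Galr2, the rarest receptors found at that level. Animals cannot be told apart.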

Other observations

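Genes that act below these receptors were compared between the Piezo2 only neurons of the segments, a step added after the values had been seen. As given above, the mix of subtype markers in this class differs between the segments. Of 20 signalling genes compared 2 were called higher in LS, beside 8.37% of all genes and so near that background, the adenylate cyclases Adcy2 (19.5 against 6.52 TPM) and Adcy8 (5.53 against 1.93), and 4 lower, beside 7.98%. The latter were Grk3, a receptor kinase (0.790 against 2.70 TPM), Arrb1, an arrestin that stops receptor signalling (11.8 against 30.8 TPM), Rgs4, which speeds the shut-off of G proteins (598 against 1419), and Gnaq (44.0 against 93.9). Plate means of Arrb1 and Gnaq did not overlap, and the share of all genes with this trait is not given here. Adcyap1, which encodes the peptide PACAP, was at 764 TPM in LS and 241 in TL Piezo2 only neurons.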
